A study of Mus musculus with 16 samples.

Results

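H3K4me3 ChIP-seq of the adult mouse hippocampus gave 35996 distinct marked regions, and 3541 of them (9.84%) lay far from every annotated gene. These distal intergenic regions overlapped no gene of the GRCm38 gene table and lay more than 10 kb from both ends of every gene, coding or not. The rule used positions only. It was set with earlier results of these data known, and the sources used here do not state how the regions themselves were defined. Of the other regions, 19846 lay within 2 kb of a gene end, 10362 inside a gene, and 2247 between genes within the 10 kb limit. Just inside the limit were a region 10002 bp from Dcaf5 and one 10007 bp from Gm25173. Just outside were a region 9998 bp from Hnrnpll and one 9996 bp from Zmynd11.

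The study compared 6 groups with 2 libraries each, all from male mice aged 2 to 4 months, and each library pooled hippocampi of 2 mice. One cohort, called the KO cohort, was of F1 mice with mixed C57/129 background. It held WT and Kdm5c KO mice under standard conditions, and WT and Kdm5c KO mice after 1 h in a box with tubing and toys, called novelty here. These groups are written WT standard, KO standard, WT novelty and KO novelty. The second cohort, on a pure C57BL/6J background, held mutants labelled ifKO Kdm5c and their controls, written ifWT, both under standard conditions. Controls were littermates per the labels' protocols. The sources used here do not state how the ifKO line was made or which of its cells lack Kdm5c. The tissue was whole hippocampus, so fewer cells of a type and less mark per cell cannot be told apart.

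H3K4me3, trimethylation of lysine 4 on histone H3, is the mark of active and poised promoters, and distal enhancers usually carry H3K4me1 with little of the trimethylated form. Kdm5c is an X-linked demethylase that removes methyl groups from H3K4 and acts at promoters and at enhancers. H3K4me3 away from known genes can lie at unannotated promoters, at strongly active enhancers, or over repeated DNA where reads from many copies are placed on few assembled ones.

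Total counts ranged from 18181192 to 30435735 per library, so that 3 counts, the limit that a count of 0 allows, corresponded to 0.0953 to 0.168 CPM (read counts scaled for library size). At gene ends, each region was assigned to its single nearest gene, so a marker without one may have a region assigned to a neighbour. By that assignment, 5 of 6 pyramidal and granule neuron markers had a region, among them Camk2a (172 CPM) and Nrgn (118 CPM). Markers of interneurons, astrocytes, oligodendrocytes, microglia and endothelium also had regions, from 1.92 CPM (Cx3cr1) to 130 CPM (Slc1a2). Prox1 and Aqp4 were assigned none. Of the choroid plexus genes Ttr and Kl, Kl had a region (26.5 CPM) and Ttr was assigned none. Of the liver and muscle genes Alb, Apoa2, Myh6 and Acta1, taken as absent tissues, Acta1 alone had one (30.4 CPM).

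The distal regions were narrow and weak. Their median width was 627 bp, against 697 bp in the nearer intergenic regions, 728 bp inside genes and 1391 bp at gene ends. Their median level over the 12 libraries was 1.55 CPM, against 33 CPM at gene ends, 2 CPM inside genes and 2.05 CPM in the nearer intergenic regions. Fewer than 1 CPM was measured at 31.8% of the tested distal regions and over 10 CPM at 6.54%. The level changed little with distance, with a median of 1.63 CPM at 10 to 20 kb from a gene, 1.49 CPM at 20 to 50 kb, 1.61 CPM at 50 to 100 kb and 1.37 CPM at 252 regions beyond 100 kb, the single most isolated one aside. The median distance to the nearest gene end was 24590 bp, and to the nearest coding gene 60161 bp. The most isolated region, near the pseudogene Gm19050, lay 631079 bp from any gene.

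The gene nearest to a distal region was a lncRNA gene for 1397 regions, a coding gene for 1172 and a pseudogene for 772. Most regions stood alone, as 2668 had no other distal region nearby, and 75 clusters of 3 or more held 291. Chromosome Y had few regions of any kind, but 26 of its 45 were distal. The lists of activity-induced genes, hippocampal neuron genes and developmental transcription factors had few distal regions beside them. Fosb and Egr4, both induced by neuronal activity, had 1 each, Bcl11b 1, Zbtb18 2 and Tfap2a 1. The 12 genes of H3K4 methyltransferases and demethylases had none.

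A small set of distal regions carried extreme signal. Relative to width, 21 regions exceeded 300 CPM per kb, a limit set after the values were seen. They started at 339 CPM per kb, whereas the next region below had 212 and the median distal region 2.44. Of these, 14 lay side by side on chr9:3000008-3025942 near Mir101c, and 4 on chr2:98662118-98667456. The others were chr12:3109630-3110357, chr14:19415634-19419653 and chrX:143482752-143483362. Away from the distal class, 6 regions passed the same limit.

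The strongest, chr2:98666198-98667456, had 8356 and 11026 CPM in WT standard and 7242 and 7212 CPM in KO. After novelty it had 8595 and 10636 CPM in WT and 7686 and 9433 CPM in KO. In ifWT it had 20355 and 27873 CPM, and in ifKO 37357 and 22669 CPM. Both ifWT and ifKO were above every library of the KO cohort, and ifKO and ifWT overlapped. All 21 regions had a higher level in ifWT than in WT standard by edgeR, with a median log2 difference of 1.34.

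Because of these regions, the share of all counts that fell in the distal class followed them. It was 3.01% and 3.5% in WT standard, 2.99% and 2.96% in KO, 3.09% and 3.38% in WT novelty, and 3.08% and 3.45% in KO novelty. In ifWT it was 5.39% and 7.12%, and in ifKO 9.22% and 6.12%. KO and WT overlapped, and the difference over the 4 KO and 4 WT libraries was -0.123 percentage points (exact permutation test, two-sided, p = 0.43, where the smallest possible p is 0.029).

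Without the 21 densest regions, the share was higher in every KO library than in every WT library. It was 1.19% and 1.15% in WT standard, 1.2% and 1.13% in WT novelty, 1.39% and 1.37% in KO standard, and 1.38% and 1.37% in KO novelty. The mean was 1.38% ± 0.0094 (SD, n = 4) in KO and 1.17% ± 0.036 (SD, n = 4) in WT, a ratio of 1.18. The exact permutation test gave p = 0.029, and 0.044 after adjustment over 6 shares tested. In ifWT the share was 1.2% and 1.3%, and in ifKO 1.51% and 1.35%, both above ifWT.

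The nearer intergenic regions had a KO to WT ratio of 1.17, and regions inside genes had a ratio of 1.07. Gene ends took 86.1% of counts in KO and 87.2% in WT. These shares sum to the whole library, so a rise in one needs a fall in another.

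**Figure D1:**
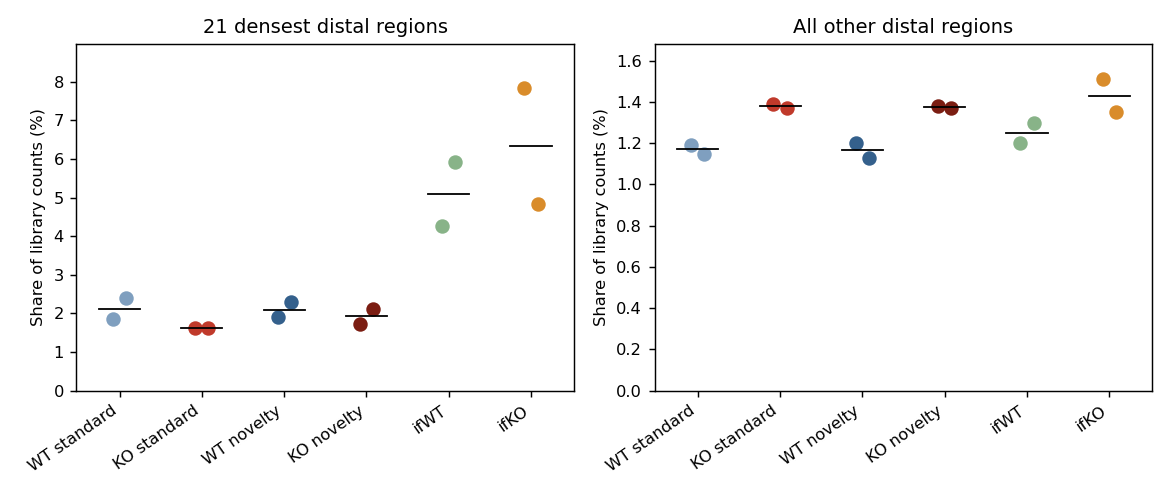
Share of each library's counts (%, y axis) in the 21 densest distal regions (left) and in all other distal regions (right, with the densest regions removed from the total too), by group (x axis); points are libraries and lines are group means, n = 2. The densest regions took 4.25% to 7.85% in the ifWT and ifKO libraries and 1.62% to 2.39% in the KO cohort, whereas all 4 KO libraries sit above all 4 WT libraries on the right.

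The main comparison asked where the distal mark changes without Kdm5c. Of 3532 distal regions that passed the filter on low counts (9 of the 3541 did not), edgeR's quasi-likelihood test called 344 higher and 23 lower at a Benjamini-Hochberg adjusted p under 0.05. Higher calls were 9.74% of all tested regions and 9.74% of the distal ones. Lower calls were 3.67% of all regions and 0.651% of the distal ones. The total of 367 fell to 147 and 223 without WT standard replicate 2 or 1, to 194 without KO standard replicate 1, to 201 with DESeq2 and to 228 with offsets fitted to region strength. Rises of at least 2-fold were called at 160 of the 3532 distal regions and at 1421 of all 35955 (3.95%). They were called at 128 of 2242 nearer intergenic regions, 616 of 10344 inside genes and 517 of 19837 gene ends. The median log2 change was 0.17 over the distal regions and 0.01 over all regions. With offsets fitted to strength, a scaling that removes trends with level, these medians were 0.01 and -0.01.

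The other regions away from gene ends gave like values. The nearer intergenic regions had 12.4% higher and 0.624% lower calls and a median change of 0.15, and regions inside genes had 11.6%, 0.928% and 0.14. Gene ends had 8.48% higher and 5.98% lower calls and a median of -0.05.

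The share of higher calls differed with the level of the region. Below a mean log2 CPM of 0, 3.9% of the distal regions were higher in KO, against 5.33% of all other regions at that level. The shares were 4.94% against 9.15% at 0 to 1, 12.5% against 14.1% at 1 to 2, and 18.1% for both at 2 to 3. At 3 to 4 the distal share was above the other, at 27.8% against 18.1%, and at 4 to 6 it was 32.1% against 9.88%. Above 6 it was 10.8% of 37 distal regions, or 25% of 16 without the densest, against 1.98%. Lower calls were few in both at low levels, at 0.195% of distal and 0.25% of other regions below 0. They were 0.0969% against 0.309% at 0 to 1 and 0.403% against 0.608% at 1 to 2. At 2 to 3 they were 0% against 1.14%, at 3 to 4 0% against 1.11%, and at 4 to 6 1.23% against 5.31%. Above 6 they were 43.2% of distal regions, or 6.25% without the densest, against 12.5%. The median change was positive in the distal regions and slightly negative elsewhere at a log2 CPM of 4 to 6, at 0.19 and -0.04. The difference between these shares was not tested, and the median gene end lay at a log2 CPM of 5.05. The other regions pool gene ends with nearer intergenic regions and regions inside genes, which were not set apart by level. Beside the hippocampal neuron genes, the median log2 change of the 3 regions was -0.29, and none was called lower. Of the regions beside listed genes, 1 was higher under standard conditions, 13 kb from Zbtb18, a transcription factor gene of cortical and hippocampal neurons. It had 3.86 and 2.99 CPM in WT standard and 5.34 and 5.21 CPM in KO standard, a log2 change of 0.62 ± 0.21 (edgeR adjusted p 0.042). That adjusted p was between 0.059 and 0.37 without any 1 of the 4 libraries, 0.097 with DESeq2 and 0.13 with offsets fitted to strength.

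The rises of largest size among the named regions were near Cdk19 and Gm33919, and their sizes did not differ beyond their errors. Regions were named as largest rises only if called and without overlap between the compared libraries. The separation of libraries at the regions so named thus follows from that choice. Cdk19 encodes a kinase of the Mediator complex. Its region chr10:40494705-40495969, 10.9 kb from the gene, had 0.359 and 0.313 CPM in WT and 7.27 and 3.93 CPM in KO standard. After novelty it had 0.295 and 0.452 CPM in WT and 4.8 and 5.25 CPM in KO. Every KO library was far above every WT library, where the choice of regions already required that they not overlap. The log2 change was 4.03 ± 0.35 (SE, edgeR adjusted p 3.1e-10) under standard conditions and 3.70 ± 0.33 after novelty. In ifWT it had 0.637 and 0.447 CPM and in ifKO 0.617 and 0.562 CPM, a log2 change of 0.13 ± 0.48 (adjusted p 0.92). Its neighbour chr10:40496924-40498156 rose less, by 1.04 ± 0.21, from 3.28 and 3.84 CPM to 8.99 and 5.69 CPM (edgeR adjusted p 0.00076, and 0.085 without KO standard replicate 1).

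A region 30.3 kb from the lncRNA gene Gm33919, chr10:83894691-83896477, behaved in the same way. It had 0.314 and 0.447 CPM in WT and 7.1 and 5.43 CPM in KO standard, a log2 change of 4.02 ± 0.33. In ifWT it had 0.441 and 0.759 CPM and in ifKO 0.72 and 0.337 CPM. Another region lay 31.1 kb from Olig1, which encodes a transcription factor of the oligodendrocyte lineage. At chr16:91303087-91304216 it had 0.764 and 0.626 CPM in WT, 5.71 and 5.94 CPM in KO, 0.637 and 0.491 CPM in ifWT and 1.13 and 0.562 CPM in ifKO. The KO libraries were the high ones at all of these regions.

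Other regions rose in both mutant lines. The region chr1:164681903-164683805 lay 112 kb from Gm32569 and 113 kb from Dpt, the gene for the matrix protein dermatopontin. It had 1.75 and 1.88 CPM in WT, 13.3 and 11.7 CPM in KO, 1.42 and 1.74 CPM in ifWT and 11.5 and 7.47 CPM in ifKO. Its log2 change was 2.78 ± 0.22 in KO (edgeR adjusted p 1.9e-11) and 2.58 ± 0.23 in ifKO (adjusted p 1.3e-09). No mutant library overlapped a control library, as the choice of regions required in each of these comparisons.

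The region chr13:95910515-95912642 lay 13.4 kb from Gm24032 and 18.2 kb from Iqgap2, which encodes a cytoskeletal scaffold protein. It had 2.79 and 3.04 CPM in WT, 19.1 and 17.9 CPM in KO, 3.23 and 2.72 CPM in ifWT and 15.9 and 13.6 CPM in ifKO. The region 61.6 kb from Emp1, an epithelial membrane protein gene (chr6:135444747-135446529), went from 1.75 and 1.56 to 9.94 and 10.9 CPM in KO. In the second cohort it went from 2.16 and 2.99 CPM in ifWT to 15.7 and 9.49 CPM in ifKO. All of these levels separated mutants from controls without overlap, again as the choice of regions required.

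Near Slc23a4 (11.1 kb), a gene of the ascorbate transporter family, chr6:34999554-35000456 rose by 2.54 ± 0.28 in KO standard, by 3.45 ± 0.30 after novelty and by 2.00 ± 0.30 in ifKO. Near Adgb (12.7 kb), which encodes an androglobin, chr10:10322274-10322998 rose by 2.62 ± 0.31, 2.90 ± 0.34 and 2.11 ± 0.29 in the same order.

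**Figure D2:**
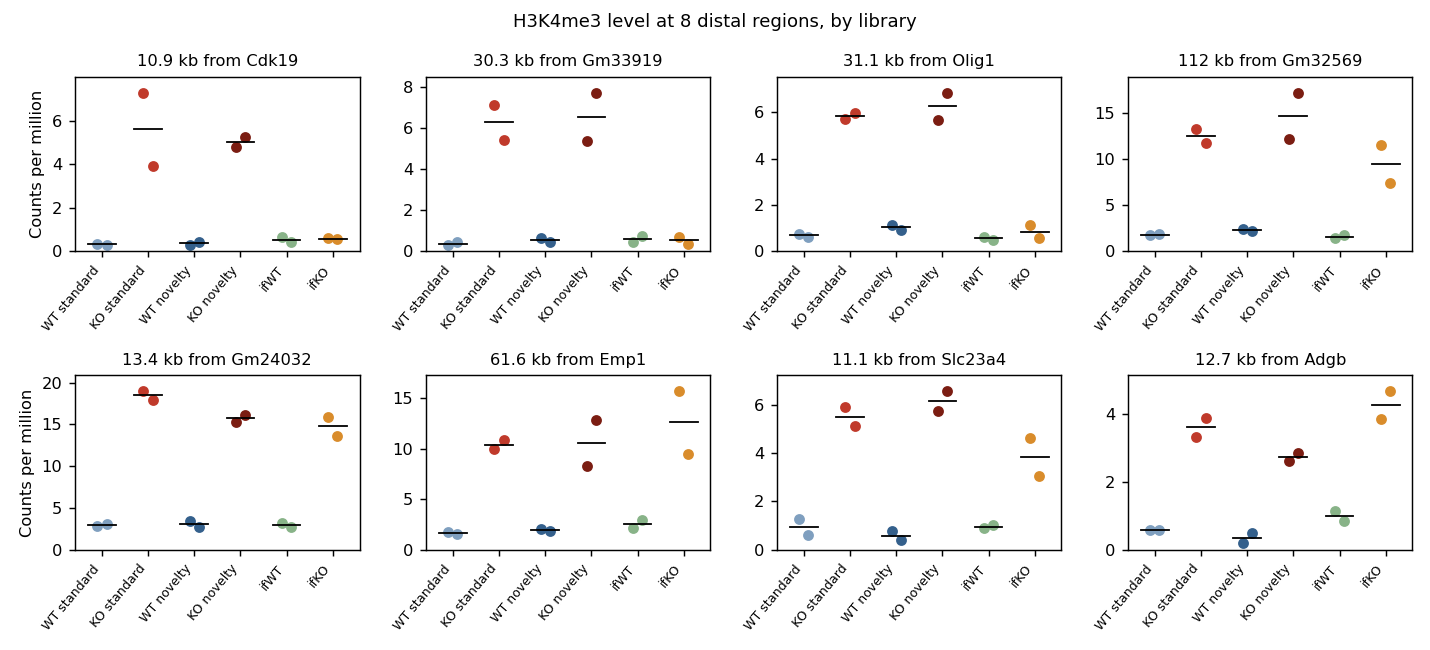
H3K4me3 level (CPM, y axis, a linear scale of its own in each panel) of 8 distal regions by group (x axis); points are libraries, lines are means, n = 2, and panel titles give the nearest gene and its distance. The regions were picked for their rises in KO, so KO libraries are high in all 8 panels. The ifKO libraries are high in 5 of them but not near Cdk19, Gm33919 or Olig1.

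Few distal regions fell. At least 2-fold falls were called at 3 regions, all weaker than the level set for naming regions (mean log2 CPM of 1). Near Thap1 (20.2 kb), a zinc finger transcription factor gene, chr8:26184339-26185189 had 3.5 and 3.75 CPM in WT and 1.85 and 1.94 CPM in KO standard. The log2 change was -0.93 ± 0.22 (edgeR adjusted p 0.004), and the adjusted p was 0.056 without WT standard replicate 2. After novelty the libraries had 4.18 and 4 CPM in WT and 3.15 and 2.89 CPM in KO, and the change of -0.43 ± 0.20 did not pass (adjusted p 0.14).

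Near Sike1 (15.1 kb), whose product inhibits a kinase of antiviral signalling, chr3:102979826-102980592 changed by -0.88 ± 0.29 (edgeR adjusted p 0.039). Its adjusted p was 0.17 and 0.13 without WT standard replicates 1 and 2, 0.23 and 0.061 without KO standard replicates 1 and 2, 0.084 with DESeq2, 0.05 with limma-voom and 0.058 when scaled by library totals.

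Of the 23 falls, 15 were densest regions, with a median log2 change of -0.42 over all 21. They moved together: WT standard replicate 2 had more of each than replicate 1. The calls rested on WT standard replicate 2, though not on it alone. Without that library 1 distal region fell in all, and with DESeq2 4 fell. After novelty none of the 21 was called, and their median change was -0.17. Without the densest regions, 344 distal regions were higher and 8 lower.

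After novelty, KO against WT again gave mostly rises. Higher calls numbered 393 (11.1% of all regions were called higher) and lower calls 11 (5.94% of all). The median log2 change was 0.17, and 0.02 with offsets fitted to strength. The count of 404 fell to 148 without WT novelty replicate 2, to 228 and 242 without KO novelty replicates 1 and 2, and to 239 with DESeq2. The libraries of this comparison are separate from those under standard conditions. Of the 344 regions higher under standard conditions, 224 (65.1%) were also higher after novelty, where they made up 57% of the higher calls, and 340 had the same sign. None was called in the opposite direction, and no fall was shared. The overlap over all regions was not computed, so whether this one is particular to distal regions was not tested.

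Among the falls after novelty, the region 11.6 kb from Mzt1, a gene of a microtubule nucleation subunit, had 3.17 and 3.51 CPM in WT and 1.84 and 1.59 CPM in KO (chr14:99022375-99022950). Its log2 change was -0.95 ± 0.24 (edgeR adjusted p 0.0048), with adjusted p of 0.077 without WT novelty replicate 2 and 0.061 without KO novelty replicate 2. Under standard conditions it had 2.65 and 2.01 CPM in WT and 1.93 and 2.13 CPM in KO, which overlap.

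Averaged over both conditions, 710 distal regions (20.1%) were higher and 63 (1.78%) lower in KO, against 18.1% and 13.9% of all regions. The nearer intergenic regions had 24% higher and 1.74% lower calls, and regions inside genes 23.2% and 4.39%. Of the 63, 21 were the densest regions. A scaling that lets the offset vary with region strength gave 428 higher and 136 lower, so that the higher share of calls went from 91.8% to 75.9%. After novelty alone that scaling gave 244 higher and 47 lower.

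Exposure to novelty changed no distal region by edgeR. In WT, 0.00556% of all regions were called, and in KO 0% of them. Unadjusted p under 0.05 was reached by 118 distal regions in WT and 145 in KO, and DESeq2 and limma-voom also called 0. The interaction of genotype and novelty called 0% of all regions, and 125 distal regions had an unadjusted p under 0.05. The region 16.4 kb from Fosb, an activity-induced gene, had 14.5 and 15.8 CPM in WT standard and 14.6 and 13.8 CPM after novelty. In KO it had 19.1 and 16.9 CPM and, after novelty, 16.7 and 18.8 CPM.

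The second comparison of mutants with controls, ifKO against ifWT, called 142 distal regions higher and 4 lower, where 4.41% and 0.976% of all regions were called. The median log2 change was 0.11. It was 0.03 with offsets fitted to strength, 0.02 and 0.17 without ifKO replicates 1 and 2, and 0.06 and 0.20 without ifWT replicates 1 and 2. Of the 142, 94 (66.2%) were also higher in KO standard, where they made up 27.3% of the higher calls, and 125 (88%) were higher in KO averaged over both conditions. None was called in the opposite direction. Here too the overlap over all regions was not computed. The count of 146 fell to 72 calls without ifKO replicate 1, 74 without ifWT replicate 1 and 92 with DESeq2.

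Of the largest ifKO rises not yet described, one was 23.8 kb from Lrpap1, a chaperone gene for lipoprotein receptors (chr5:35129465-35130781). It had 1.81 and 1.61 CPM in ifWT and 11 and 9.21 CPM in ifKO, and 1.03 and 2.06 CPM in WT and 7.64 and 8.33 CPM in KO. The log2 change was 2.56 ± 0.22 in ifKO (edgeR adjusted p 4.4e-10) and 2.37 ± 0.22 in KO standard. The other lay 64.7 kb from the lncRNA gene Gm8633 (chr10:98416572-98418234). It had 0.686 and 1.34 CPM in ifWT and 5.55 and 3.87 CPM in ifKO, a log2 change of 2.2 ± 0.29 (adjusted p 2.5e-06). In KO standard it rose by 1.92 ± 0.27, from 1.26 and 1.3 CPM in WT to 4.8 and 4.92 CPM. Mutants and controls did not overlap at either region, which the choice of regions required for ifKO against ifWT but not for KO standard.

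Among the 4 falls, chr6:10689603-10690737 lay 83.4 kb from the pseudogene Gm2691. It had 3.58 and 4.64 CPM in ifWT and 2.06 and 1.8 CPM in ifKO, a log2 change of -1.09 ± 0.25 (edgeR adjusted p 0.0062, and 0.1 without ifWT replicate 2). It was also lower in KO averaged over both conditions, with 1.84 and 1.79 CPM in WT and 1.27 and 1.32 CPM in KO standard.

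**Figure D3:**
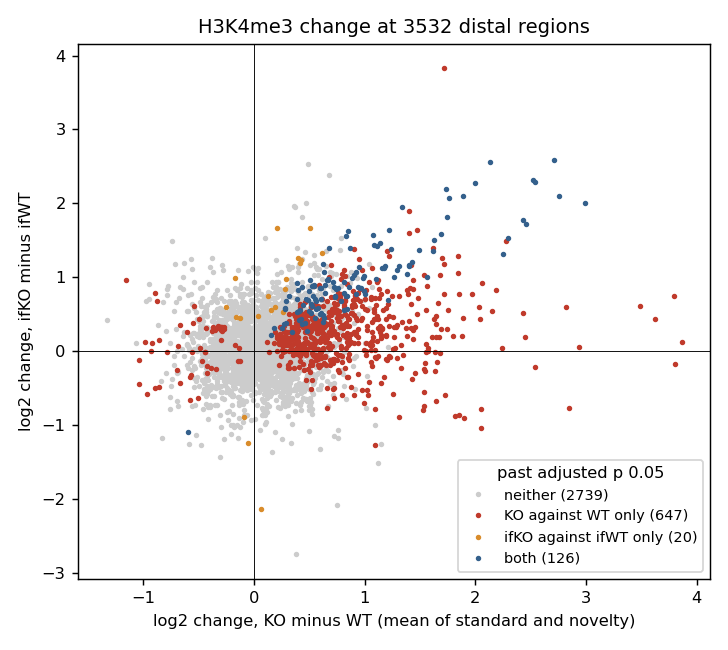
log2 change of the 3532 tested distal regions in KO against WT, averaged over standard conditions and novelty (x axis), and in ifKO against ifWT (y axis); each point is a region, coloured by the comparison in which its adjusted p was under 0.05. The 126 regions past the threshold in both lie in the upper right, except 1 that fell in both, and several of the largest KO rises lie near 0 on the y axis.

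Whether the KO effect differed from the ifKO effect was tested directly. Of the distal regions, 15 had a larger change in KO standard and 2 a smaller one, where 0.651% and 0.0501% of all regions were called. The rises near Gm33919, with a difference of 4.20 ± 0.62 on the log2 scale (edgeR adjusted p 0.0002), and near Cdk19, with 3.90 ± 0.64, were among the 15. A region 17.9 kb from Spsb1, a gene of a ubiquitin ligase adaptor (chr4:149876944-149878376), had 0.584 and 0.715 CPM in WT and 4.8 and 3.16 CPM in KO. It had 0.882 and 0.982 CPM in ifWT and 1.08 and 0.505 CPM in ifKO, and the difference was 2.82 ± 0.51.

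The region 26.5 kb from Gm33979 and 154 kb from Bicc1, which encodes an RNA-binding protein, had 1.75 and 2.32 CPM in WT and 10.6 and 7.34 CPM in KO (chr10:70766747-70768589). It had 1.67 and 1.92 CPM in ifWT and 2.21 and 1.46 CPM in ifKO, and the difference was 2.09 ± 0.36. Line, genetic background and cohort changed together between these mutants, so their parts cannot be told apart. The count depended on single libraries: it was 51 (11 larger, 40 smaller) without ifKO replicate 2, 28 (6 and 22) without ifWT replicate 2, 27 (8 and 19) without WT standard replicate 1, 6 without WT standard replicate 2, 8 without KO standard replicate 1 and 10 without ifKO replicate 1.

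The control groups of the cohorts also differed. Against WT under standard conditions, 219 distal regions were higher and 74 lower in ifWT, where 7.28% and 7.2% of all regions were called. The densest regions made up 21 of the 219. The count of 293 calls fell to 163 without WT standard replicate 1, 173 without replicate 2 and 189 without ifWT replicate 1.

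A region 10.1 kb from Ptprt, a receptor phosphatase gene, had 0.0898 and 0.313 CPM in WT and 0.164 and 0.514 CPM in KO, but 18 and 17.8 CPM in ifWT and 16.5 and 16.5 CPM in ifKO (chr2:161510950-161511886). The log2 difference of ifWT from WT was 6.44 ± 0.31 (edgeR adjusted p 3e-16), with levels in WT near the limit of 3 counts. Near Gm39919 (19.4 kb), chr2:123754230-123755095 had 0.225 and 0.357 CPM in WT and 8.57 and 6.65 CPM in ifWT. Both regions were near 0 throughout the KO cohort and present throughout the other.

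The opposite pattern occurred at chr15:31167556-31168694, 25.5 kb from Gm26416 and 55.7 kb from Dap, with 7.32 and 6.43 CPM in WT, 8.17 and 8.99 CPM in KO, 0.441 and 0.402 CPM in ifWT and 0.823 and 0.337 CPM in ifKO. At chr17:6476084-6477660, 14.5 kb from Ppp1r2-ps5, the level was 103 and 98 CPM in WT and 38.1 and 16 CPM in ifWT. The Cdk19 neighbour chr10:40496924-40498156, which rose in KO, had 0.343 and 0.536 CPM in ifWT against 3.28 and 3.84 CPM in WT. Background and cohort cannot be told apart here either.

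The 5 largest clusters of distal regions were summed per library and tested over the 4 KO and 4 WT libraries. The largest held 32 regions on chr6:114499935-114629502, nearest to the histamine receptor gene Hrh1. Their starts were spaced regularly: of 31 spacings, 16 were 2200 to 2600 bp, 8 were 4600 to 5000 bp and 5 were 7000 to 7600 bp, windows set after the spacings were seen. Each region was weak, with a median of 0.422 CPM. The summed level was 10.4 and 11.2 CPM in WT standard, 11.2 and 10.5 CPM in WT novelty, 19.8 and 25.8 CPM in KO standard, and 23.5 and 24.1 CPM in KO novelty.

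All KO sums of this cluster exceeded all WT sums, by a ratio of 2.15 (exact permutation p = 0.029, adjusted over 5 clusters 0.048). The mean of KO was above that of WT at all 32 regions. Of these, 22 were called higher in KO averaged over both conditions, 4 under standard conditions alone and 8 after novelty alone. The shares of all regions called higher in these comparisons were 18.1%, 9.74% and 11.1%. In ifWT the sum was 7.54 and 9.15 CPM and in ifKO 11.3 and 8.82 CPM, which overlap. The mean of ifKO was above that of ifWT at 25 of the 32 regions, and none was called there. Regions of one array can share reads between copies, so that they may not be separate measurements.

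**Figure D4:**
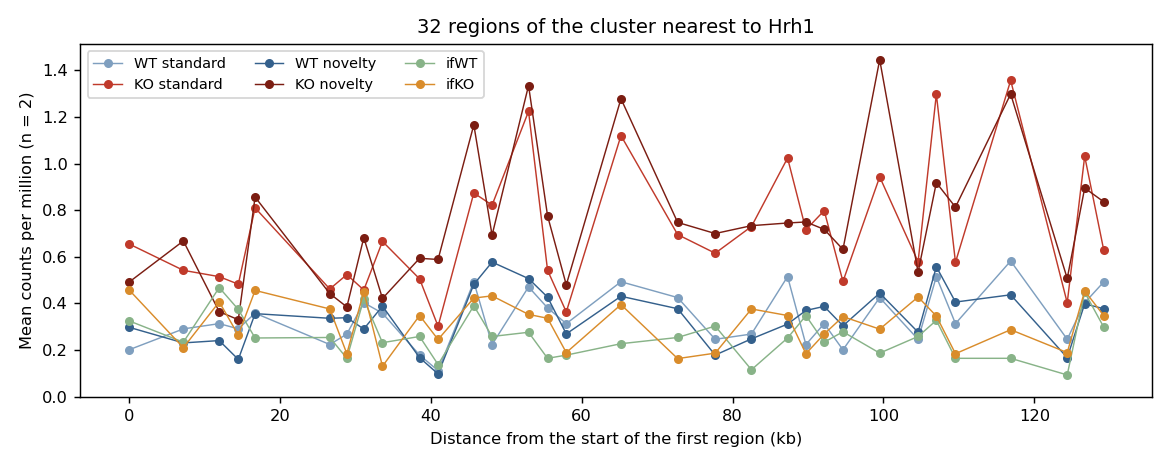
Mean H3K4me3 level (CPM, y axis, n = 2 libraries) of the 32 regions of the cluster nearest to Hrh1, against distance from the start of the first region (kb, x axis); lines join regions of one group. At every region the mean over both KO groups is above that over both WT groups, whereas the ifKO and ifWT sums are 7.54 to 11.3 CPM.

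A second cluster, 10 regions on chr15:85652888-85681634 nearest to the lncRNA gene D130051D11Rik, was strong. It had 392 and 398 CPM in WT standard, 366 and 393 CPM in WT novelty, 432 and 425 CPM in KO standard and 412 and 421 CPM in KO novelty. Again KO and WT did not overlap, with a smaller ratio of 1.09 (exact permutation p = 0.029, adjusted 0.048). The KO mean was above the WT mean at 9 of the 10 regions. Averaged over both conditions, 8 were called higher and 1 lower, where 18.1% and 13.9% of all regions were. The region chr15:85653435-85654980, described below, is one of the 10 and adds to that rise, and the sum without it was not tested. In ifKO 3 of the 10 regions were called higher, where 4.41% of all regions were. The 14 densest regions on chromosome 9 had a ratio of 0.814 (exact permutation p = 0.11, adjusted 0.14).

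The 8 regions on chr5:14989034-15008404 near Gm10354 summed to 3.28 and 3.71 CPM in WT and 1.85 and 2.13 CPM in KO standard. After novelty they summed to 3.38 and 3.83 CPM in WT and 3.27 and 2.97 CPM in KO, a ratio of 0.72 over all (exact permutation p = 0.029, adjusted 0.048). In ifWT they had 11.5 and 14.6 CPM and in ifKO 20.5 and 13.7 CPM, which overlap, with the ifKO mean higher at all 8 regions. The 5 regions on chr17:3010217-3030155 near Gm10232 had a ratio of 0.843 (exact permutation p = 0.34), and they too were higher in ifWT, at 7.64 and 9.73 CPM against 1.26 and 2.5 CPM in WT. Both clusters were thus high in the second cohort, as were the densest regions.

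Kdm5C binding could be set beside few distal regions. The Kdm5C and H3K4me1 files list 2321 regions of one WT and one KO library each, and 16 distal regions (0.452%) overlapped one, against 10.75% of gene ends. These 16 were strong, with a median of 32.1 CPM. The values are called raw counts in the file headers but behave as base coverage summed over the region, so they can exceed its width. Summed Kdm5C coverage was higher in the WT library than in the KO library at all 16, with medians of 1382 and 293, close to the medians of 1346 and 281 over the whole list. Summed H3K4me1 coverage had medians of 228.5 and 142. With 1 library each, no test was made, and the sources used here do not state how these regions were chosen.

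Of the 16, 6 were higher in KO standard, 6 after novelty, 4 in ifKO, and none lower under standard conditions. Among all distal regions of log2 CPM 4 to 6, 32.1% were higher under standard conditions, 32.1% after novelty and 23.5% in ifKO. The largest change was at chr15:85653435-85654980, in the cluster near D130051D11Rik and 71.6 kb from the signalling gene Wnt7b. It had 20.9 and 22.2 CPM in WT, 43.2 and 43.3 CPM in KO, 21.9 and 24.4 CPM in ifWT and 43.2 and 40.6 CPM in ifKO. The levels of mutants and controls lay far apart, with a log2 change of 1.01 ± 0.08 in KO (edgeR adjusted p 8.3e-11) and 0.86 ± 0.09 in ifKO. Summed Kdm5C coverage was 1511 in WT and 779 in KO.

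The region 18.7 kb from Nsd1, a histone methyltransferase gene, had a summed Kdm5C coverage of 4967 in WT and 450 in KO (chr13:55189558-55191104). Its H3K4me3 was 33.4 and 32.5 CPM in WT and 42.3 and 35.7 CPM in KO. That change of 0.24 ± 0.08 (edgeR adjusted p 0.041) had an adjusted p of 0.12 and 0.24 without WT standard replicates 1 and 2, 0.5 without KO standard replicate 1, 0.1 with DESeq2, 0.059 with limma-voom and 0.055 with RLE factors. The region 12.8 kb from Rpl30-ps6 and 37.8 kb from Ptma, a chromatin protein gene, had 65.3 and 65.7 CPM in WT and 88.2 and 81.2 CPM in KO (chr1:86486789-86488786), a change of 0.37 ± 0.06 (adjusted p 3.5e-05). In ifKO it rose by 0.27 ± 0.06.

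Some distal regions had a microRNA gene as their nearest neighbour. There were 37 of these, 14 of them densest regions near Mir101c, and they were singled out after the values were seen. A microRNA is cut from a longer transcript whose promoter can lie far upstream, and H3K4me3 at a distal region is not a measurement of the microRNA. Mature sequences from RefSeq (GRCm38.p6) are given to identify the products of the genes nearest to the regions described next, with the seed (bases 2 to 8) in capitals.
mmu-let-7a-5p: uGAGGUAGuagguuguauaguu
mmu-miR-125b-5p: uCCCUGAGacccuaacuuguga
mmu-miR-146a-5p: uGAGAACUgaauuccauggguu

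The seeds of the 3 differ. The region 13.9 kb from Mirlet7a-1, of the let-7 family that restrains growth in mature cells, had 7.64 and 9.7 CPM in WT and 11.9 and 13 CPM in KO (chr13:48552145-48553046). After novelty it had 8.78 and 6.51 CPM in WT and 12 and 13.6 CPM in KO. KO was above WT in each condition, with log2 changes of 0.52 ± 0.15 (edgeR adjusted p 0.017) and 0.75 ± 0.15 (0.00041). The first adjusted p was 0.24 without WT standard replicate 1, 0.11 without KO standard replicate 2 and 0.083 with offsets fitted to strength. Its change in ifKO, 0.33 ± 0.15, did not pass (adjusted p 0.23).

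A region 141 kb from Mir125b-2, a brain-expressed microRNA gene, had 13.9 and 12.8 CPM in WT and 17.3 and 16.7 CPM in KO, a change of 0.35 ± 0.11 (edgeR adjusted p 0.039, chr16:77787780-77788976). Without any 1 of these 4 libraries the adjusted p was between 0.085 and 0.29, with DESeq2 0.082 and with offsets fitted to strength 0.15. Another region with Mir125b-2 as its nearest gene, chr16:77759624-77761059, lay closer to it and also passed as higher under standard conditions. Its log2 change was 0.22 and 0.69 without WT standard replicates 1 and 2, and 0.42 and 0.45 without KO standard replicates 1 and 2. The region 10.2 kb from Mir146, of a microRNA that damps innate immune signalling, had 14.3 and 14.3 CPM in WT and 12.3 and 14.1 CPM in KO (chr11:43384709-43386118). Its change of -0.11 ± 0.12 did not pass (adjusted p 0.57).

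The region 20.4 kb from Mir30d was among the strong ones, with 77.8 and 82 CPM in WT and 78.2 and 80.8 CPM in KO standard (chr15:68361710-68363951). After novelty it had 87 and 91.3 CPM in WT and 79.2 and 76.1 CPM in KO, a fall of -0.20 ± 0.06 (edgeR adjusted p 0.014). The adjusted p became 0.093 with offsets fitted to strength. Leaving out WT novelty replicate 2 gave 0.18, and leaving out KO novelty replicate 1 or 2 gave 0.05 or 0.14.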

How the data were processed

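H3K4me3 files held raw read counts per region, deposited without normalization per the file headers, for one shared region set; their definition was not given in the sources used here. Kdm5C and H3K4me1 files hold a signal deposited by the authors, which the headers call raw counts but which behaves as summed base coverage and was read as such. Upstream tools were MACS2 2.1.0, DESeq2 1.10.0, Bowtie2 2.2.9, SAMtools 1.3.1, featureCounts and R 3.3 on build mm10, per the submitters' processing notes.

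Of 36005 regions, 9 repeats were removed. Positions came from a RefSeq table of GRCm38.p6 (49943 genes). No region sequence was read. All 12 libraries were fitted together in edgeR 4.0.16 (R 4.3.3) with TMM factors, filterByExpr, 1 mean per group, quasi-likelihood F tests and Benjamini-Hochberg adjustment over 35955 regions. CPM use TMM-scaled totals. Standard errors were derived from the F statistic. Shares and cluster sums were compared by exact permutation tests in SciPy 1.17.1. With 2 libraries per group the p-values rest on a spread shared across groups, and measure the spread between pools. Counts without molecular identifiers are not independent molecules, so limits cover counting error only.

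Named regions were the 6 with the largest log2 change in each direction per comparison among those called, with mean log2 CPM not under 1 and no overlap between libraries, the 8 with the most Kdm5C coverage, the 8 with the highest mean CPM (all among the densest), the 5 farthest from a gene, the 4 beside the distance limit, those nearest to listed genes, and the 5 largest clusters (neighbours within 12.5 kb). Members and lists were chosen with earlier results of these data known. Alternatives were RLE factors, library totals, strength-fitted offsets, no filter, DESeq2 1.42.0, limma-voom 3.58.1, fewer groups, a replicate block, other distance limits and leaving out each library. The edgeR steps were tested on simulated data.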

Additional observations from a re-analysis of the deposited data

Results flagged for a closer look

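The following distal regions stood out because their KO effect under standard conditions differed from the ifKO effect by a direct test in edgeR. The difference, on the log2 scale, was 4.20 at chr10:83894691-83896477 near Gm33919, 3.90 at chr10:40494705-40495969 near Cdk19, 2.82 at chr4:149876944-149878376 near Spsb1 and 2.09 at chr10:70766747-70768589 near Gm33979. Those 4 kept an adjusted p under 0.05 without each library in turn. Near Olig1 it was 2.45 at chr16:91303087-91304216, where the adjusted p of 0.014 became 0.099 without WT standard replicate 2, 0.14 without ifWT replicate 1, 0.05 without ifWT replicate 2 and 0.065 with limma-voom.

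At its neighbour chr16:91301058-91302266 the difference was 1.79. Its adjusted p became 0.22 without ifWT replicate 2, 0.072 and 0.065 without WT standard replicates 1 and 2, 0.051 without KO standard replicate 1, 0.057 without ifKO replicate 1 and 0.067 with limma-voom.

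Among the densest regions near Mir101c, the difference was -0.85 at chr9:3004526-3004806 and -0.80 at chr9:3003160-3003663. Here the adjusted p of 0.044 and 0.046 became 0.94 and 0.96 with DESeq2, 0.062 and 0.065 with scaling by library totals, and 0.061 for both with the compared groups alone. With offsets fitted to strength it was 0.1 for both, and with limma-voom 0.29. Leaving out WT standard replicate 2 gave 0.49 and 0.48. Leaving out KO standard replicate 1 gave 0.09 and 0.11, KO standard replicate 2 gave 0.12 and 0.11, and ifWT replicate 1 gave 0.22 and 0.24. Without ifKO replicate 1 it was 0.38 and 0.4, and the differences were -0.41 and -0.39. Both regions had higher levels in all libraries of the second cohort than in any library of the KO cohort.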

How the results depend on the processing

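The counts of called distal regions were 367 for KO standard against WT standard, 404 for KO novelty against WT novelty, 773 averaged, 146 in ifKO, 17 for the KO minus ifKO effect and 293 for ifWT against WT. They were 201, 239, 508, 92, 9 and 170 with DESeq2. With offsets fitted to strength the first was 228 and the fifth 11, and the fifth was 5 with limma-voom and 8 with the compared groups alone. Longer distance limits leave fewer regions: beyond 20 kb the counts were 234, 247, 468, 85 and, for ifWT, 177, and beyond 50 kb 65, 69, 138, 27, 2 and 57. A mean log2 CPM of at least 1 gave 494 averaged and 188 for ifWT. Leaving out 1 library gave 147 to 259 under standard conditions, 148 to 317 after novelty, 542 to 715 averaged, 72 to 200 in ifKO, 6 to 51 for KO minus ifKO and 163 to 199 for ifWT. Novelty and the interaction gave 0 in each setting run. The KO minus WT difference in share of counts, -0.123 percentage points, was 0.023 beyond 50 kb, 0.0308 in the novelty libraries alone and 0.21 without the densest regions, and without 1 library -0.233 to -0.0376. Of 66 results for single named regions, 39 stayed on the same side of the threshold without each library in turn and 53 with DESeq2, and none changed sign. Replicate numbers did not pair the libraries: deviations of same-numbered libraries correlated from -0.18 to 0.15. With a replicate block the counts were 356, 397, 754, 138, 15 and 287, and the difference in share had p = 0.62 by the exact permutation test within pairs. Among the named regions the block ended 1 call (chr2:145122585-145123556 after novelty, adjusted p 0.052). Crossed numbers in ifWT and WT standard, whose correlation was -0.11, gave 433 calls, an alternative chosen after seeing the data, like the fit without the densest regions. At these depths, regions near 3 counts cannot be ordered.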
